A study of Mus musculus with 66 samples.

Results

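The miR-101 family in these data was made up of 4 mature miRNAs, mmu-miR-101a-3p, mmu-miR-101a-5p, mmu-miR-101b-3p and mmu-miR-101b-5p, which are both arms of the hairpins Mir101a and Mir101b. The species prefix mmu is left out from here on. They were chosen by name, and all 4 were found among the 1826 miRNAs of the table. Small RNA libraries had been sequenced from the plasma of 13 male mice of the inbred strain C3H, of which 8 had hepatocellular carcinoma (HCC) by histology and 5 did not (non-HCC). Each value was a number of unique molecular indices (UMIs), so that amplified copies of a captured molecule were counted once. Every mouse, HCC and non-HCC, is labelled as over 12 months after radiation and 0 days before tumor detection, and each library came from a mouse of its own. The study's methods divide the HCC mice into spontaneous and radiation-induced tumors, a division that the sample labels do not carry, so both kinds were compared as one group. Blood was drawn at necropsy by cardiac puncture and the plasma was screened for hemolysis. Another 53 columns, from the F2 progeny of C3H and BALB/c mice, have names that match no sample label and show no group, and were not used here.

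A miRNA hairpin is cut by Drosha and then Dicer into a 5p and a 3p strand, and the strand kept by Argonaute pairs with messenger RNAs mainly through its seed, the bases near its 5′ end. The 3p strands of miR-101 are known for repressing EZH2, the methyltransferase that places the repressive mark H3K27me3, and in human liver cancer tissue miR-101 is commonly reduced. Mouse miR-101a is known as widely expressed and miR-101b as the copy enriched in liver. No tissue was measured here, so this origin was not checked directly. Plasma holds no tissue of its own, so that a circulating level reflects release by cells of many organs as well as clearance, and more cells releasing a miRNA could not be told apart from more copies released per cell.

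The sequences below are shown because both copies are nearly identical, and the comparison of the copies rests on the few bases that differ. They are the RefSeq mature sequences on GRCm38.p6, written 5′ to 3′, with bases 2 to 8 in capitals. All 4 members were matched by name.
miR-101a-3p: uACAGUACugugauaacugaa
miR-101b-3p: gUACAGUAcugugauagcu
miR-101a-5p: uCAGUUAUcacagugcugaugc
miR-101b-5p: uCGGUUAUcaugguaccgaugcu
miR-101c: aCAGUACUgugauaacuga
miR-144-3p: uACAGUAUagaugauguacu

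The 2 hairpins are printed with both annotated arms in capitals, the 5p arm first, to show where each arm lies.
Mir101a: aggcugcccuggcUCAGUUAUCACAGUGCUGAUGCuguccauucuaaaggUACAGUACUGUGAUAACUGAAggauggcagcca
Mir101b: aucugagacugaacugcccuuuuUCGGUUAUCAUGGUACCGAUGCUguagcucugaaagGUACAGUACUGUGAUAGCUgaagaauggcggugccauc

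Across the 21 bases of miR-101a-3p, the matching stretch of the Mir101b hairpin was identical at 20 and differed by A16G, counted from the 5′ end of miR-101a-3p with the base of miR-101a-3p first. The annotated start of miR-101b-3p lay 1 base earlier than that of miR-101a-3p, at a G that also precedes miR-101a-3p in its own hairpin. Bases 2 to 8 of the annotated strands therefore read ACAGUAC in miR-101a-3p and UACAGUA in miR-101b-3p, although both molecules hold the run ACAGUAC. The 5p arms were less alike, with 17 of 22 bases identical and the differences A3G, C11U, A12G, G15A and U17C, counted from the 5′ end of miR-101a-5p. No other miRNA among the 1563 of the table with a mature sequence shared bases 2 to 8 with any of the 4 members. Bases 2 to 7 of miR-101a-3p recurred in miR-144-3p, a miRNA of red blood cells, and those of miR-101b-3p in miR-582-5p.

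On GRCm38, Mir101a lies at chr4:101346945-101347027 on the minus strand, in an exon of the long non-coding RNA gene E130102H24Rik, which is transcribed in the same direction. Mir101b lies at chr19:29135279-29135375 on the plus strand, within an intron of Rcl1, a protein-coding gene that runs in the same direction. A further listed miRNA, miR-101c, is annotated at chr9:3038669-3038743 on the minus strand and overlaps no other annotated gene. Its 19 bases lie wholly inside miR-101a-3p, so that a UMI of miR-101c could not be told apart with certainty from a shortened miR-101a-3p, and it was kept apart from the members.

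Total depth overlapped between the groups. The HCC libraries held 9513136 to 14247488 miRNA UMIs and the non-HCC libraries 10467560 to 13962539. Levels were set against UniSP2 and UniSP4 (the mean of their UMI counts), synthetic miRNAs added to each sample before RNA isolation. UniSP2 had 165794 to 938898 UMIs in HCC and 364466 to 731761 in non-HCC mice, and UniSP4 only 225 to 1008 and 504 to 867. The mean was therefore set almost wholly by UniSP2. Relative to its geometric mean, this scale ran from 0.347 in HCC mouse 5 to 1.96 in HCC mouse 7, and from 0.763 to 1.53 in the non-HCC mice. Libraries of 3 pairs of HCC mice were closely alike. The SD of their log2 ratios over miRNAs was 0.247 for mice 2 and 5, 0.261 for mice 3 and 7 and 0.338 for mice 1 and 6, against at least 0.878 for every other pair of HCC mice and 0.428 to 0.781 among non-HCC mice. The labels give each library a mouse of its own and they were kept as separate mice, but whether the pairs are independent was not tested. Each pair differed by more than counting noise, which repeat libraries of a single sample could also do. The main comparisons are therefore also given with each pair summed. In this plasma the liver miRNAs miR-192-5p, miR-194-5p and both strands of miR-122 together took 38241 to 509748 CPM (UMI counts scaled to a common total of miRNA UMIs per library) in HCC mice, against 6498 to 8982 CPM in the non-HCC mice.

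The 3p strand of miR-101b was the most abundant member in every mouse. The order was miR-101b-3p, miR-101a-3p, miR-101a-5p and miR-101b-5p in 13 of 13 mice, with miR-101c between the arms of miR-101a. In raw UMIs, miR-101b-3p ran from 18223 to 54179 in non-HCC mice (median 31409) and reached 29740 to 153459 with HCC (median 66768). It held place 15 to 41 among all miRNAs in the HCC mice and place 32 to 52 in the non-HCC mice. In contrast, miR-101a-3p ran from 7166 to 25717 UMIs without HCC (median 13715) and from 7814 to 25813 with HCC (median 12155). Its passenger strand miR-101a-5p had 198 to 595 UMIs without HCC and 203 to 586 with HCC. The 5p strand of miR-101b was close to the lowest value listed in the table, which is 10. It had 10 to 21 UMIs in the 5 non-HCC mice, 10 to 18 in 5 HCC mice and was listed at 0, that is at most 9 UMIs, in HCC mice 1, 2 and 5. Those 3 mice had the most miR-101b-3p UMIs of all 13. The UMI counts compare captured molecules, and how evenly the strands were captured was not tested.

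Because the copies were counted in the same library, their ratio needs no library scale. The annotated 3p strands are identical at 17 of 18 bases compared, and how reads were assigned between them was not tested. Molecules of miR-101b-3p per molecule of miR-101a-3p numbered 2.71, 2.58, 2.54, 2.23 and 2.11 in non-HCC mice 1 to 5. In HCC mice 1 to 8 the ratio was 9.28, 6.71, 2.52, 3.72, 5.95, 8.97, 2.64 and 4.57. The ratio in HCC mice 1, 2, 4, 5, 6 and 8 was above that of every non-HCC mouse, whereas HCC mice 3 and 7 lay inside the non-HCC range. The mean log2 ratio was 1.28 ± 0.15 (SD, n = 5) without HCC and 2.32 ± 0.73 (SD, n = 8) with HCC, a difference of 1.04, or 2.06-fold between geometric means of 4.98 and 2.42. By a two-sided exact permutation test over all 1287 ways to assign the mice, p was 0.0132, and 0.0176 after adjustment over the 4 ratios tested. The alike pairs lay next to each other in this ratio, with mice 1 and 6 the highest and mice 3 and 7 the lowest of the HCC group. With each pair summed the HCC ratios were 9.13, 6.26, 2.58, 3.72 and 4.57, the log2 difference was 0.98 and the adjusted p was 0.0212 by the same exact permutation test. Counting miR-101c together with miR-101a-3p gave a log2 difference of 1.06.

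**Figure D1:**
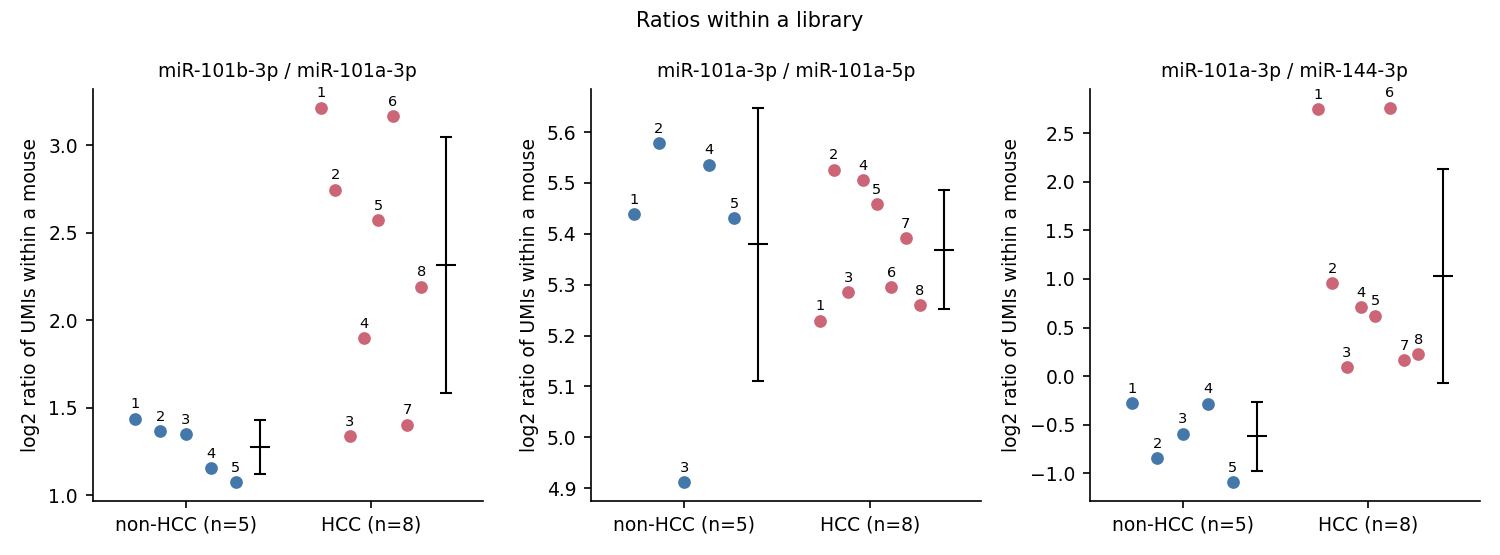
Log2 ratios of UMIs within each mouse for miR-101b-3p over miR-101a-3p, miR-101a-3p over miR-101a-5p and miR-101a-3p over miR-144-3p, in non-HCC (blue) and HCC (red) mice. Each numbered point is a mouse, and the bars give the mean and SD. In the left panel 6 of 8 HCC mice sit above all 5 non-HCC mice, in the middle panel the groups overlap, and in the right panel 8 of 8 HCC mice sit above all non-HCC mice.

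The levels of each copy were next compared between the groups. On the spike-in scale, the log2 level of miR-101b-3p was 13.90, 14.58, 13.75, 14.62 and 16.12 in non-HCC mice 1 to 5 and 16.19, 18.34, 14.14, 16.08, 18.75, 17.01, 13.89 and 14.60 in HCC mice 1 to 8. HCC mice 1, 2, 5 and 6 were above every non-HCC mouse and the other 4 lay within the non-HCC range. Relative to the non-HCC mice, miR-101b-3p had a log2 fold change of 2.21 (SE 0.83), with an unadjusted p of 0.0142 and an adjusted p of 0.118 by edgeR's quasi-likelihood test across 1452 miRNAs, and so did not pass. The means of the log2 levels were 16.12 ± 1.85 (SD, n = 8) and 14.59 ± 0.94 (SD, n = 5), and the exact permutation test of their difference gave p = 0.116. With the alike pairs summed the log2 fold change was 1.98 (adjusted p 0.174, edgeR). For comparison, the median log2 fold change of all 1452 miRNAs on this scale was 0.78.

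The levels of miR-101a-3p overlapped more. They were 12.46, 13.21, 12.40, 13.47 and 15.04 in non-HCC mice 1 to 5, and 12.98, 15.59, 12.80, 14.18, 16.18, 13.84, 12.48 and 12.41 in HCC mice 1 to 8. Only HCC mice 2 and 5, whose libraries were alike, exceeded every non-HCC mouse. The log2 fold change was 0.81 (SE 0.73), with an adjusted p of 0.656 by edgeR, beside the median of 0.78 over all miRNAs. Single mice moved this value, which was 1.53 without non-HCC mouse 5 (median of all miRNAs 0.98) and 0.25 without HCC mouse 5 (median 0.72), and it did not pass without either. Its partner strand miR-101a-5p ran from 7.09 to 10.72 in HCC and from 7.02 to 9.61 in non-HCC mice on the log2 spike-in scale, with a log2 fold change of 0.78 (SE 0.71) and an adjusted p of 0.656 by edgeR. The annotated miR-101c gave a log2 fold change of 0.80 (SE 0.76, adjusted p of 0.669 by edgeR). The rare miR-101b-5p had a log2 fold change of -0.51 (SE 1.29, adjusted p of 0.927 by edgeR), a value that depends on how the 3 mice listed at 0 are treated.

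**Figure D2:**
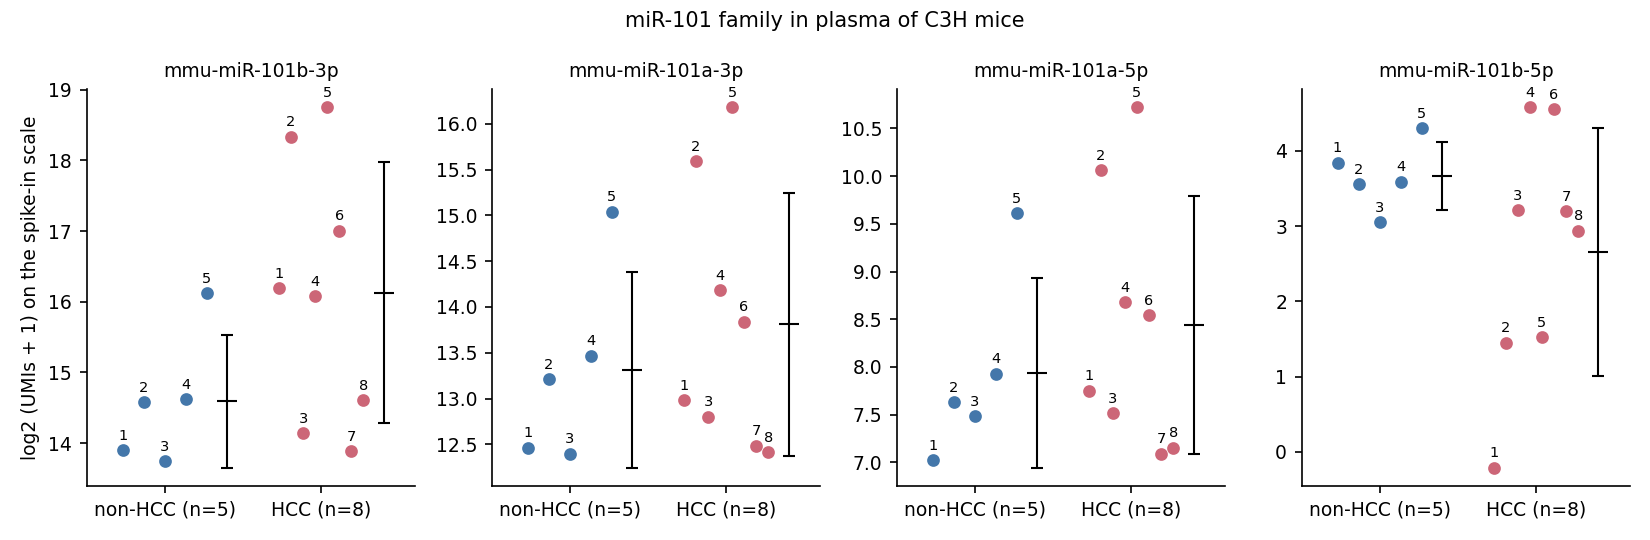
Log2 of UMIs plus 1 on the spike-in scale for the 4 members in non-HCC (blue) and HCC (red) mice, each panel with its own axis. Each numbered point is a mouse, and the bars give the mean and SD. HCC mice 1, 2, 5 and 6 lie above all non-HCC mice for miR-101b-3p, and HCC mice 2 and 5 for miR-101a-3p and miR-101a-5p. The lowest 3 points of miR-101b-5p are the mice listed at 0.

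Of the 4 members, 0 passed the adjusted threshold of 0.05 in edgeR on the spike-in scale, where 109 of 1452 miRNAs, 7.51%, passed and all of them were higher in HCC. At an unadjusted p under 0.05, 1 member and 283 miRNAs passed on this scale. DESeq2 on the same spike-in scale called 1 member, miR-101b-3p, at a log2 fold change of 2.21 (adjusted p 0.0218), and gave miR-101b-5p no adjusted p. It called 181 of 1452 miRNAs, 12.5%, higher and 2 lower. Those 1452 include miRNAs without an adjusted p, so the share among miRNAs with one was higher. In limma, miR-101b-3p was at 1.53 (adjusted p 0.352). With total miRNA UMIs as the scale, edgeR called 1 of 4, miR-101b-3p, at 1.30 (SE 0.38, adjusted p 0.0375), against 123 miRNAs called higher, 8.47% of those tested, and 32 called lower. On that scale the median of all miRNAs was 0.37 and miR-101a-3p was at 0.09. With the TMM scale of edgeR miR-101b-3p was at 1.29 (adjusted p 0.0916), miR-101a-3p at 0.05 and the median of all miRNAs at 0.17. The direction of miR-101b-3p was the same on each of these scales, and its call was not, with adjusted p from 0.00808 to 0.352 over 24 alternative settings. The lowest came from an edgeR fit with the label number as a block, although the labels do not say whether numbers pair mice.

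**Figure D3:**
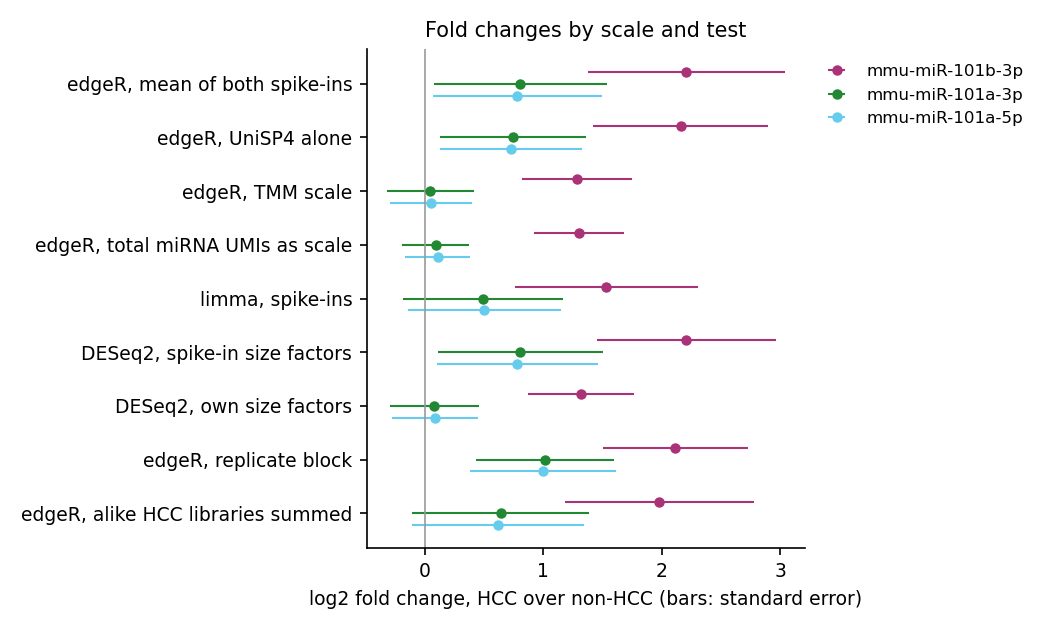
Log2 fold changes of miR-101b-3p, miR-101a-3p and miR-101a-5p, HCC over non-HCC, under each library scale and test (bars, standard error). The estimates for miR-101b-3p lie between 1.29 and 2.21 and are to the right of both arms of miR-101a in each row.

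As a share of the library, miR-101b-3p stood at 2141, 2550, 1741, 2321 and 3880 CPM in non-HCC mice 1 to 5. In HCC mice 1 to 8 it stood at 8487, 8510, 3157, 4371, 10979, 8072, 2515 and 3750. HCC mice 1, 2, 4, 5 and 6 exceeded every non-HCC mouse. The difference of the mean log2 shares was 1.17 (exact permutation p = 0.0148, two-sided), and it was 1.09 with p = 0.0238 by the same exact test when the alike pairs were summed. By this measure 1 of 4 members was higher in HCC at p under 0.05, against 208 of 1452 miRNAs, 14.3%. For miR-101a-3p the shares ran from 685 to 1842 CPM without HCC and from 821 to 1847 CPM with HCC, a log2 difference of 0.13 (exact permutation p = 0.605). These shares have a denominator that contains the liver miRNAs given above, and their part in the shares was not tested.

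**Figure D4:**
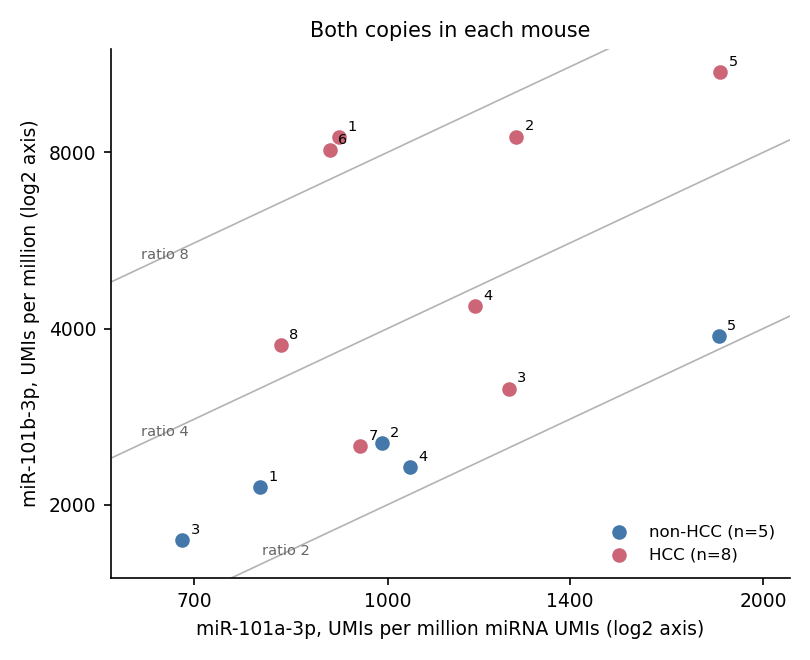
CPM of miR-101b-3p against miR-101a-3p, on log2 axes, in each non-HCC (blue) and HCC (red) mouse, numbered. The grey lines mark 2, 4 and 8 molecules of miR-101b-3p for each molecule of miR-101a-3p. All non-HCC mice lie between ratios of 2.11 and 2.71, and HCC mice 1 and 6 lie above a ratio of 8.

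The proportion of the arms of miR-101a overlapped between the groups. There were 30.2 to 47.95 molecules of miR-101a-3p per molecule of miR-101a-5p in non-HCC mice (median 43.6) and 37.6 to 46.2 in HCC mice (median 40.8). The log2 difference was -0.01 with an adjusted p of 0.935 by the exact permutation test. For miR-101b the 3p arm was in still larger excess. The 5 non-HCC mice had 1112 to 3870 molecules of the 3p arm per molecule of the 5p arm and the 5 HCC mice with both arms had 1749 to 6045. In HCC mice 1, 2 and 5 the ratio was at least 9630 to 17051, computed with 9 UMIs for the value listed at 0, and the arms of miR-101b were not tested for this reason. The ratio of miR-101c to miR-101a-3p was 0.240 to 0.273 without HCC and 0.205 to 0.276 with HCC.

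Liver miRNAs were compared with the liver copy. On the spike-in scale edgeR called 109 of 1452 miRNAs, 7.51%, higher in HCC, and the median log2 fold change of all was 0.78. Of 10 liver miRNAs, 9 were called higher in HCC plasma in this fit, with a median log2 fold change of 4.06 over the 10. These included miR-122-5p, the most abundant miRNA of hepatocytes, at 7.34 (SE 1.17, adjusted p 0.00303) and miR-192-5p at 4.51 (SE 0.87, adjusted p 0.00566). The lowest of the 9 was miR-193a-3p at 2.90 (SE 0.75, adjusted p 0.0200), above the 2.21 of miR-101b-3p, and miR-215-5p at -0.00 did not pass. The list was assembled with earlier results of these data known, so that its count is no independent evidence. Molecules of miR-101b-3p per molecule of miR-122-5p numbered 0.411 to 1.75 in non-HCC mice (median 1.01) and 0.0189 to 0.143 in HCC mice (median 0.0339). The log2 difference of -4.56 had an adjusted p of 0.00311 in the exact permutation test, with 8 of 8 HCC mice below all non-HCC mice, and its unadjusted p of 0.000777 is the smallest that this design can give. With the alike pairs summed the log2 difference was -4.63 (adjusted p 0.0159, exact permutation test). The values of miR-122-5p were known when this ratio was chosen, and its level alone exceeded all non-HCC mice in 8 of 8 HCC mice. The p-values of the ratio are therefore no independent evidence about miR-101b-3p.

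The red cell miRNA miR-144-3p, which shares bases 2 to 7 with miR-101a-3p, was compared in the same way. Molecules of miR-101a-3p per molecule of miR-144-3p numbered 0.470 to 0.825 in non-HCC mice (median 0.662) and 1.07 to 6.79 in HCC mice (median 1.59). Each of the 8 HCC mice exceeded each non-HCC mouse, with a log2 difference of 1.65 (adjusted p = 0.0124, exact permutation test). The highest values, 6.71 and 6.79, were those of the alike HCC mice 1 and 6, and with the alike pairs summed the log2 difference was 1.53 (adjusted p = 0.0159, exact permutation test). As a share of UMIs, miR-144-3p had a log2 difference of -1.52 (exact permutation p = 0.0357) beside the 0.13 of miR-101a-3p. On the spike-in scale the edgeR log2 fold change of miR-144-3p was -0.84 (SE 0.78, adjusted p 0.659). It was 0.20 without non-HCC mouse 5 and -1.54 without HCC mouse 5, so that the direction of this edgeR estimate rested on a single library. The means of its log2 levels on that scale differed by -1.16 (exact permutation p = 0.234), with 5 of 8 HCC mice below all non-HCC mice. The whole list of 6 red cell miRNAs took 365060 to 389444 CPM without HCC and 66890 to 394686 CPM with HCC, 0 of 6 passed in edgeR, their median log2 fold change was -0.54 and none was at 0 in all mice. Of 5 miRNAs of platelets and leukocytes and 5 of muscle, 0 passed in either list in edgeR on the spike-in scale, where 7.51% of all miRNAs passed. The median log2 fold changes were -0.69 and 1.47, beside 0.78 over all miRNAs. With total miRNA UMIs as scale, edgeR called 32 of 1452 miRNAs lower. Among them were miR-150-5p (-2.36), miR-142a-5p (-2.22), miR-142a-3p (-1.11), miR-223-3p (-1.06) and the red cell miR-144-5p (-2.26). Their adjusted p were 0.000347, 0.00995, 0.0204, 0.0360 and 0.0360. No other miRNA of these lists passed there. The part of these cells in the ratio was not tested.

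Within the HCC group the copies varied together on the spike-in scale, with Pearson's r = 0.93 (exact permutation p = 0.00228, n = 8) and Spearman's rho = 0.857 (exact permutation p = 0.0107). Without HCC mice 2 and 5, the farthest from the median of miR-101a-3p, r was 0.79. As shares of UMIs the relation did not hold, with r = 0.39 (exact permutation p = 0.340, n = 8), rho = 0.429 (exact permutation p = 0.299), and r = -0.18 without the 2 farthest mice. Both levels are divided by the same spike-in count in a mouse, and the part of that shared scale in the relation was not tested. By contrast, miR-101b-3p and miR-122-5p were related on both scales by Pearson's r, and by Spearman's rho only on the spike-in scale. These levels too are divided by the same spike-in count in a mouse. On the spike-in scale r was 0.93 (exact permutation p = 0.000149, 0.000298 adjusted over both relations, n = 8) with rho = 0.976 (exact permutation p = 0.000397), and 0.94 without HCC mice 3 and 7. As shares of UMIs r was 0.88 (exact permutation p = 0.00496, adjusted 0.00992, n = 8), rho was 0.714 (exact permutation p = 0.0576), and r was 0.76 without HCC mice 3 and 7. These p-values take the 8 mice as independent, and no correlation was computed over the 5 HCC libraries that remain with the alike pairs summed.

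The 5 miRNAs whose levels were most like each copy over the 13 mice were listed. For miR-101a-3p these included its own other arm and miR-101c, which could not be told apart with certainty from shortened miR-101a-3p. Among 699 miRNAs with UMIs in all mice, the 5 with the highest Spearman's rho to miR-101a-3p on the spike-in scale were miR-101c (0.984), miR-1839-5p (0.984), let-7g-3p (0.945), miR-101a-5p (0.945) and miR-32-5p (0.945). For miR-101b-3p they were miR-21a-5p (0.984) and miR-21a-3p (0.978), the strands of a miRNA raised in many tumors, followed by miR-3965 (0.962), miR-216a-5p (0.956) and miR-22-5p (0.956). The median rho over all 699 miRNAs was 0.706 for miR-101a-3p and 0.698 for miR-101b-3p, on a scale that divides all miRNAs of a mouse by the same spike-in count. The other copy was only in place 73 for miR-101a-3p and in place 136 for miR-101b-3p, with a rho of 0.852 between them. As shares of UMIs the rho of miR-101a-3p was 0.978 with miR-101c, 0.808 with miR-32-5p and 0.753 with miR-101a-5p, but 0.473 with let-7g-3p and 0.313 with miR-1839-5p. In the same shares the rho of miR-101b-3p was 0.912 with miR-21a-5p, 0.758 with miR-21a-3p, 0.879 with miR-3965 and 0.841 with miR-22-5p, and 0.170 with miR-216a-5p. Its rho with miR-122-5p was 0.747 on the spike-in scale, place 293, and 0.780 as shares. The median rho over all 699 miRNAs as shares was -0.225 for miR-101a-3p and -0.140 for miR-101b-3p.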

How the data were processed

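Reads had been aligned by the authors to GRCm38 and assigned to miRBase miRNAs, and barcodes had been collapsed. The deposited table holds the resulting UMI counts, unnormalized, with those of the spike-ins. The submitters' processing notes also name FastQC and Bowtie2. Values from 1 to 9 do not occur in the table, and 30.6% of its entries are 0.

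From the deposited counts, edgeR 4.0.16 in R 4.3.3 compared HCC with non-HCC mice by the quasi-likelihood test with Benjamini-Hochberg adjustment and a threshold of 0.05, on the mean of UniSP2 and UniSP4, after a filter that kept a miRNA with 5 or more UMIs in no fewer than 5 mice. The 4 members passed this filter. Standard errors are the size of the log2 fold change divided by the root of its F statistic. Alternatives used limma 3.58.1, DESeq2 1.42.0 and other scales, filters and sets of mice. Log2 levels take the count with 1 UMI added, divided by the spike-in scale relative to its geometric mean. Ratios and shares were compared by exact two-sided permutation (scipy 1.17.1, numpy 2.4.6, pandas 2.3.3, Python 3.11.15), with the ratios adjusted together.

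Mice were numbered by their label within a group. The members and lists were chosen with earlier results of these data known. Named miRNAs are the members, miR-101c, miR-144, the lists and the 5 most alike per 3p copy. Mature sequences are RefSeq's, and gene positions GENCODE M21's. The 53 unmatched F2 columns were left out. Scripts were tested on simulated data.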

Additional observations from a re-analysis of the deposited data

Results flagged for a closer look

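In 3 of the 26 groups of values searched, 1 mouse stood apart from the rest of its group by Dixon's test, where chance gives about 1 in 20. The log2 ratio of miR-101a-3p to miR-101a-5p was 4.91 in non-HCC mouse 3, against 5.43 in the next mouse. The log2 CPM of miR-101a-5p were 5.42 in non-HCC mouse 5, against 4.51 in the next. The log2 CPM of miR-101b-5p were 1.01 in non-HCC mouse 1, against 0.29 in the next, at 21 and 16 or fewer UMIs.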

How the results depend on the processing

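The direction of miR-101b-3p was the same in all 24 alternatives, with adjusted p from 0.00808 to 0.352. Among them, UniSP2 alone nearly repeated the main fit, at 2.21 (adjusted p 0.118, edgeR), and UniSP4 alone gave 2.16 (adjusted p 0.0763, edgeR). It passed the threshold at a log2 fold change of 1.30 with total miRNA UMIs as scale, at 1.32 with DESeq2 and its own size factors, at 2.21 with DESeq2 on the spike-ins and at 2.11 with a replicate block. Leaving out each mouse gave 1.67 to 2.82, with adjusted p from 0.0576 to 0.292. The same gave 0.25 to 1.53 for miR-101a-3p and 0.23 to 1.49 for miR-101a-5p. The ratio of the copies kept its direction and its call without each mouse in turn (0.91 to 1.18, adjusted p 0.00673 to 0.0377), as did the share of miR-101b-3p (1.03 to 1.34). The arm ratio of miR-101a, which passed the test in 0 of these runs, ranged from -0.13 to 0.0393, and the log2 difference of the share of miR-101a-3p from -0.0038 (without non-HCC mouse 3) to 0.35. The number of miRNAs called was 54 with limma, 222 and 183 with DESeq2 on its own and the spike-in size factors, and 44 to 157 without single mice. It moved by over 1.5 times without non-HCC mouse 1 (44), 2 (47), 3 (47) or 4 (53) or HCC mouse 2 (65). As shares of UMIs the correlation of the copies was 0.39. The labels do not say whether mice with the same number are paired. The deviations of mice with the same number correlated by 0.11, 0.13, 0.03, -0.05 and 0.21 over 699 miRNAs. Mice of different numbers were not compared in this way, so these values cannot decide it. With a replicate block over 5 such pairs, which allows no exact permutation p under 0.0625, the calls of 4 results were lost. The log2 differences were 1.08 for the ratio of the copies (adjusted p = 0.167, exact permutation test), -4.44 against miR-122-5p and 1.64 against miR-144-3p (both adjusted p = 0.125, exact permutation test) and 1.40 for the share of miR-101b-3p (p = 0.0625, exact permutation test). The arms of miR-101a were at 0.0215. A separate edgeR fit of all 13 mice, with the replicate number as a block, called 145 miRNAs. In that fit, HCC mice whose number no non-HCC mouse carries add nothing to the group difference. It gave the lowest adjusted p of miR-101b-3p, 0.00808 (edgeR). The cause of these changes was not tested. Summing the alike libraries and adding miR-101c to miR-101a-3p were chosen after seeing the data. Depth limits only miR-101b-5p, which a filter of 20 UMIs removed.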
